A study of Homo sapiens with 7 samples.

Results

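Glycosyltransferases that cap the glycans recognised by selectins were followed across 7 arrays of cell lines that descend from PC-3, a human prostate cancer line. The group comprises 9 genes chosen by name: the sialyltransferase genes ST6GAL1, ST6GAL2, ST3GAL1, ST3GAL4 and ST3GAL6 and the fucosyltransferase genes FUT3, FUT4, FUT7 and FUT8. The choice was made with earlier results of these data known. The genes are covered by 22 of the 54675 probe sets, and every probe set with 1 of these symbols was used. A probe set is a group of short probes for 1 transcript, and its signal, computed by the authors with MAS5, is linear. After a filter on low probe sets, 17 probe sets and 8 of the 9 genes remained among 13640 tested genes. FUT7 did not pass it.

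The study asked how cells that crossed an endothelial layer in culture and cells that formed metastases in mice differ in expression. Every culture was an untreated, luciferase-expressing descendant of PC-3 grown in the same medium. The PC-3-descended sublines (n = 3) did not pass through TEM4-18. GS672.Ug was recovered from urogenital tissue after intravenous injection of PC-3 into a mouse. GS689.Li, from liver, and GS694.LAd, from the left adrenal, were recovered after injection of JD549.Ki, itself a line from the kidney of a mouse injected with PC-3. The TEM4-18-derived sublines (n = 2) are GS683.LALN, from the left axillary lymph node, and JD1203.Lu, from the lung. TEM4-18 (n = 2) was selected from PC-3 by migration across lung microvascular endothelial cells, and it is the line against which the study set the other 5. Each in vivo line is a single culture on a single array. PC-3 itself was not analysed here, nor was JD549.Ki, and a difference between the PC-3-descended sublines and TEM4-18 can lie on either side. For JD1203.Lu the labels disagree: its title and description give it as a line grown from TEM4-18, but its source name is that of JD549.Ki. Results were therefore also computed with JD1203.Lu among the PC-3-descended sublines.

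Selectins are receptors on endothelium, platelets and leukocytes that slow passing cells by binding sialylated and fucosylated glycans, and tumour cells that carry such glycans can roll on endothelium in the same way. The best known ligand, sialyl-Lewis x, is built on a lactosamine end: an ST3GAL enzyme adds sialic acid first, and a Lewis-type fucosyltransferase such as FUT3, FUT4 or FUT7 then adds fucose. ST6GAL enzymes place sialic acid on the same ends in another linkage, which selectins do not recognise, and FUT8 adds fucose to the innermost core of N-glycans, away from the ends.

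The cell type was checked on markers. The keratin genes KRT18 (29050 to 38320) and KRT19 (17190 to 40100) were measured on all arrays, 5 of 6 epithelial carcinoma markers passed the filter, and CDH1 (E-cadherin) did not, with signals of 6.922 to 108.9. The trimmed mean signal was 1500.2 on every array, and the number of arrays limits the precision. The summed signal of 9 endothelial markers, of which 4 passed the filter, ran from 10068 to 12491 in the PC-3-descended sublines, from 3824.3 to 5798.7 in the TEM4-18-derived sublines and from 3095.9 to 3161.8 in TEM4-18. It thus moves with the main contrast, and the markers that passed were KDR, ESAM, ROBO4 and PECAM1. The defining endothelial genes CDH5 (at most 88.2) and VWF (at most 215.6) were below the filter, as were TEK, TIE1 and CLDN5. Summed fibroblast markers (3 of 5 above the filter) ran from 12513 to 16891, from 4382.2 to 31419 and from 17250 to 19114 in the same order of groups. This sum was mostly COL1A1 (3071 to 30750). DCN and LUM reached at most 487.3 and 614, and COL1A2 and PDGFRB were below the filter. Summed leukocyte markers (2 of 5 probed above the filter) stayed between 554.12 and 852.13 on all arrays. Their part in the results was not tested.

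ST6GAL2 and FUT8 were the members that lay lower in the PC-3-descended sublines, and their promoters are shown for that reason. The sequences are from RefSeq on GRCh38.p14 and give the 250 bases before a transcription start, 5′ to 3′ on the gene's strand, with CG dinucleotides in capitals. For each gene, the start whose window holds the most CG is shown. The ST6GAL2 window lies at chr2:106886168-106886417 on the minus strand, and the FUT8 window at chr14:65412480-65412729 on the plus strand.
ST6GAL2: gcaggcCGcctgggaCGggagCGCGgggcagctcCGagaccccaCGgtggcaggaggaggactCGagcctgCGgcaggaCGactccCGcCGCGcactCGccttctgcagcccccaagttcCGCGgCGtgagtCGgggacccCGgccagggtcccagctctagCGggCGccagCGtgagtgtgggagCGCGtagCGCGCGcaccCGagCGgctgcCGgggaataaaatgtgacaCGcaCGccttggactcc
FUT8: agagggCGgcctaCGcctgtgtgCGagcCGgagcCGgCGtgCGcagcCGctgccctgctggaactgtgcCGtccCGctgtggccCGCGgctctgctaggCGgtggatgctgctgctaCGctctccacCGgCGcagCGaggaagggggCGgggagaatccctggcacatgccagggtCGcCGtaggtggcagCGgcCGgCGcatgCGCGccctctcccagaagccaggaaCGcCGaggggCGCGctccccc
The ST6GAL2 window holds 31 CG dinucleotides, and 10.9% of the 35116 windows of this length in the RefSeq table hold as many or more. The FUT8 window holds 29, reached by 14.1% of windows, against a median of 11 over all of them. Each was picked as the window richest in CG, among 4 starts of ST6GAL2 and 3 of FUT8. The windows they are ranked among were not picked, so a high rank follows in part from the choice. GC boxes, searched as GGGCGG and as CCGCCC for the other strand, occurred 2 times in the FUT8 window and were not in the ST6GAL2 window. They occur in 42.6% of all windows. The E-box bound by ZEB repressors, searched as CAGGTG and as CACCTG, was in neither of these windows, while 17.5% of all windows hold it. Both motifs depend on the start: a FUT8 window at another start holds 1 such E-box. An ST6GAL2 window at another start holds 3 GC boxes. Of the 18 windows of 8 members, the ST3GAL4 window with the most CG held 42, and FUT8 has another start with 1. These are matches of letters in the reference, and neither methylation nor binding was measured.

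The first comparison set the PC-3-descended sublines beside TEM4-18. FUT8 and ST6GAL2 were lower and ST3GAL1 was higher in the sublines, while ST6GAL1, ST3GAL4, ST3GAL6, FUT3 and FUT4 did not pass the test. The test was limma on log2 signals, to which an offset of 46.94 had been added, with Benjamini-Hochberg adjustment over all tested genes and a threshold of 0.05. Folds are on that offset scale, which understates the change of low genes. The test called 3 of the 8 tested members, 1 higher and 2 lower, where 3.38% of all tested genes were called (2.38% higher and 1% lower). Because the members were chosen with earlier results of these data known, counts of called members here and below are a description only. The median log2 difference over the 8 members was 0.27, beside 0.05 over all tested genes. Without regard to the test, the arrays of the 2 groups did not overlap for 4 members, ST3GAL1 and ST3GAL4 higher and FUT8 and ST6GAL2 lower, as for 23.8% (higher) and 17.6% (lower) of all tested genes. Of the 461 genes called, 324 were higher, and centring each array on its median turned this split into 246 higher and 191 lower. The count of 461 became 31 without TEM4-18 replicate 2 and 44 without replicate 1, and 940 without GS672.Ug. The p-values rest on a spread pooled within the 3 groups, which in both groups of sublines is a spread between different lines. Of these lines, GS689.Li and GS694.LAd share the parent JD549.Ki. The labels do not say whether the TEM4-18 arrays are separate cultures, so the spread between the duplicates may be technical.

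**Figure D1:**
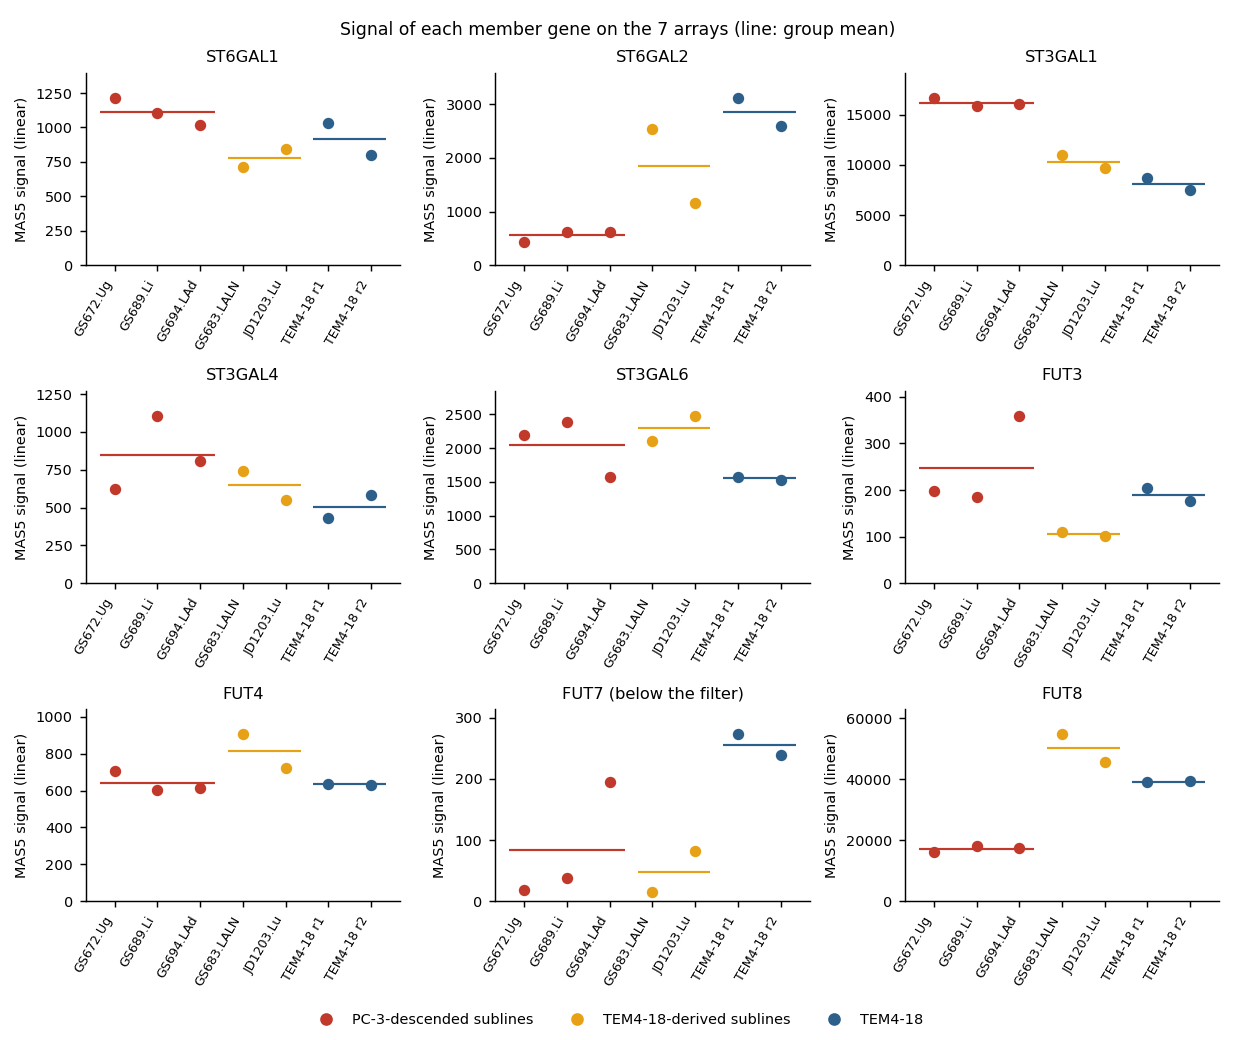
MAS5 signal (linear vertical axis, starting at 0) of the probe set that stands for each of the 9 genes on each of the 7 arrays, with PC-3-descended sublines in red, TEM4-18-derived sublines in yellow and TEM4-18 in blue. Horizontal lines are group means. FUT8 in the PC-3-descended sublines (16194 to 18048) lies below all other arrays, while ST3GAL1 (15855 to 16640) lies above them.

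FUT8, on chromosome 14, encodes the enzyme of core fucosylation. On the tested probe set (203988_s_at) its signal was 16194 in GS672.Ug, 18048 in the liver line GS689.Li and 17325 in GS694.LAd, while GS683.LALN had 54678, JD1203.Lu 45608 and the TEM4-18 duplicates 38982 and 39466. All PC-3-descended sublines thus lay below all arrays of the TEM4-18 lineage, as 7.89% of all tested genes did, and the duplicates were close to each other. A second probe set of FUT8 (1554930_a_at) gave 8347.8 to 9793.7 in the PC-3-descended sublines, 25466 to 30085 in the TEM4-18-derived sublines and 19369 to 22095 in TEM4-18. It shows the same order of groups.

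Relative to TEM4-18, FUT8 was 2.28-fold lower in the PC-3-descended sublines, with a log2 difference of -1.19 ± 0.12 (SE; adjusted p = 0.00176, limma, n = 3 and n = 2). In a fit over 26438 single probe sets, of which 3.12% were called, the second probe set differed by -1.19 ± 0.14 (adjusted p = 0.0032). The TEM4-18-derived sublines did not pass the test against TEM4-18 (log2 difference 0.35 ± 0.13, adjusted p = 0.438), although both lay above the duplicates. Set against the TEM4-18-derived sublines directly, the PC-3-descended sublines were lower by a log2 difference of -1.54 ± 0.12 (adjusted p = 0.000499), where 3.76% of all tested genes were called (2.16% higher and 1.6% lower) and 3 of 8 members. This last comparison was added after the values were seen. The call against TEM4-18 ended without TEM4-18 replicate 2 (log2 difference -1.18, adjusted p = 0.0521), and with JD1203.Lu counted among the PC-3-descended sublines (-0.84, adjusted p = 0.418).

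Several genes around FUT8 passed as lower too. Of its 20 nearest tested neighbours on chromosome 14, 10 on each side from ZBTB1 to VTI1B, 17 were lower in the PC-3-descended sublines than in TEM4-18. Limma called 9 of them lower and 0 higher, beside the 1% of all tested genes called lower. Their median log2 difference was -0.86, and 8 of them lay farther from 0 than FUT8. MAX, a partner protein of MYC and the nearest tested gene on one side, had signals of 17036, 14941 and 13509 in the PC-3-descended sublines, 44168 and 39789 in the TEM4-18-derived sublines and 34569 and 36551 in TEM4-18. Its log2 difference from TEM4-18 was -1.23 ± 0.13 in the PC-3-descended sublines (adjusted p = 0.0023, limma, n = 3 and n = 2). The lowest neighbour was PALS1, a cell polarity gene, at -1.61 ± 0.27 (adjusted p = 0.0172). In the TEM4-18-derived sublines the same 20 neighbours had a median of 0.19 relative to TEM4-18. The nearest tested gene on the other side, the antisense gene FUT8-AS1, stood at 0.38 ± 0.20 (adjusted p = 0.350). DNA copy number was not measured.

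**Figure D2:**
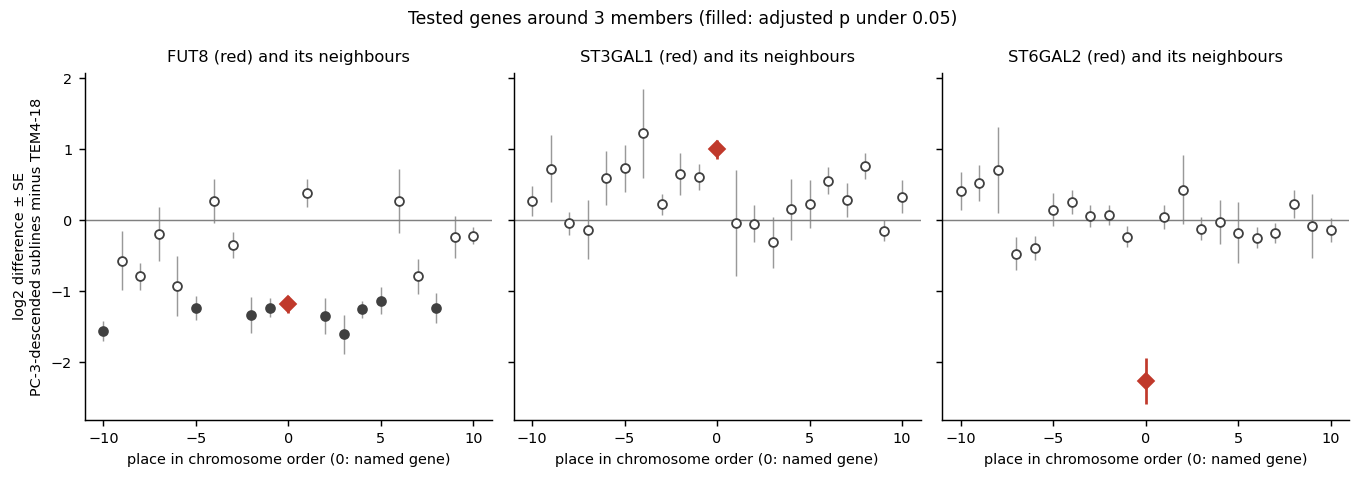
Log2 difference between PC-3-descended sublines and TEM4-18 (vertical axis, bars are SE) for FUT8, ST3GAL1 and ST6GAL2 (red diamonds, at place 0) and the 10 nearest tested genes on each side in chromosome order (horizontal axis, place in order). Filled circles passed the test. Of the neighbours of FUT8, 9 are filled and 17 lie below 0. Around ST3GAL1 and ST6GAL2 0 neighbours are filled, and ST6GAL2 stands alone at -2.27.

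ST6GAL2, on chromosome 2, encodes a sialyltransferase of the linkage that selectins do not recognise and is known mainly from brain. On the tested probe set (228821_at) its signals were 437.05 for GS672.Ug, 615.86 for GS689.Li and 627.96 for GS694.LAd. In the TEM4-18 lineage it was 2545.4 in GS683.LALN, 1159.2 in JD1203.Lu, and 3113.4 and 2603.4 in the TEM4-18 duplicates. The PC-3-descended sublines were again below every other array, and JD1203.Lu stood between them and the rest. The second probe set (1555123_at) read 268.36, 217.52 and 361.43 in the PC-3-descended sublines, 911.87 and 206.73 in GS683.LALN and JD1203.Lu, and 949 and 979.26 in TEM4-18. Here JD1203.Lu was as low as the PC-3-descended sublines.

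The log2 difference of ST6GAL2 between the PC-3-descended sublines and TEM4-18 was -2.27 ± 0.32 (4.82-fold lower, adjusted p = 0.00809, limma, n = 3 and n = 2). It was the largest among the members. The second probe set gave -1.64 ± 0.49 and did not pass in the fit over single probe sets (adjusted p = 0.119). Relative to TEM4-18, the TEM4-18-derived sublines stood at -0.71 ± 0.35 (adjusted p = 0.558). The difference between the PC-3-descended and the TEM4-18-derived sublines was -1.56 ± 0.32 (adjusted p = 0.0346), which did not pass without GS683.LALN (-1.01, adjusted p = 0.0837), GS689.Li, GS694.LAd or either TEM4-18 array (-1.64 to -1.56, adjusted p up to 0.1004), nor with the mean of the probe sets (-1.08, adjusted p = 0.172). The call against TEM4-18 ended without either duplicate (-2.14, adjusted p = 0.132 without replicate 1; -2.40, adjusted p = 0.0955 without replicate 2) and with JD1203.Lu among the PC-3-descended sublines (-2.02, adjusted p = 0.0842). None of the 20 nearest tested genes lay as far from 0, and 0 of them were called; their median was 0.0072, with 10 higher and 10 lower. The nearest were UXS1 at -0.23 and GCC2 at 0.04.

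**Figure D3:**
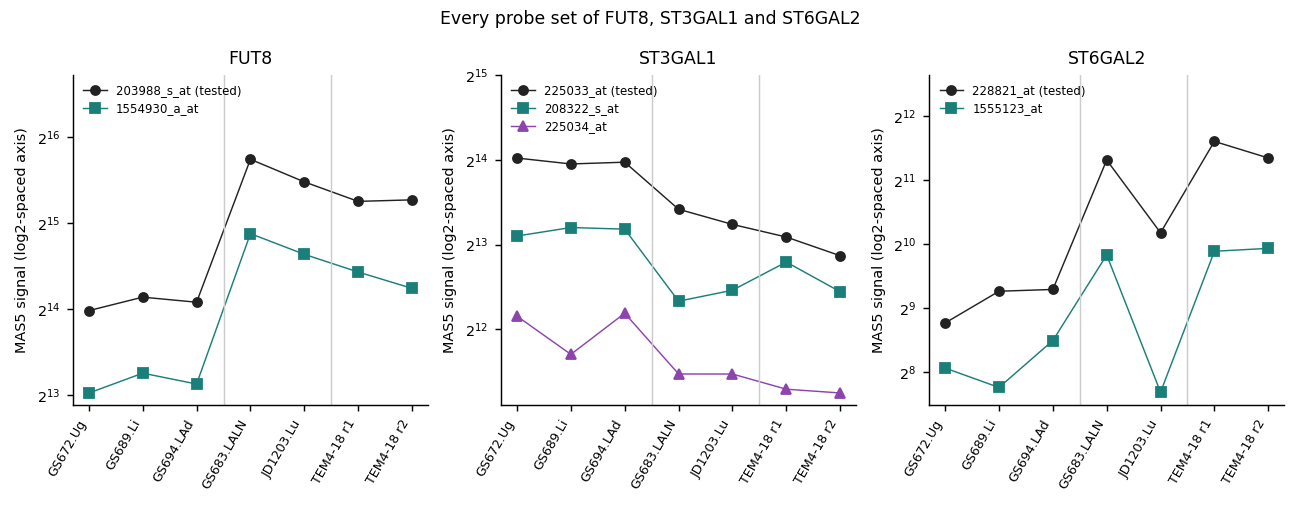
MAS5 signal (log2-spaced vertical axis) of every probe set of FUT8, ST3GAL1 and ST6GAL2 on the 7 arrays, with PC-3-descended sublines left, TEM4-18-derived sublines in the middle and TEM4-18 right of the grey lines. Lines join the values of 1 probe set. The ST6GAL2 probe sets fall apart at JD1203.Lu, with 1159.2 on the tested one and 206.73 on the other.

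ST6GAL1, the widely expressed enzyme of the same linkage, on chromosome 3, did not pass the test. Its signals were 1212.3, 1106.4 and 1019 in the PC-3-descended sublines, 712.88 and 846.55 in the TEM4-18-derived sublines and 1031.9 and 797.66 in TEM4-18. The groups overlapped between the PC-3-descended sublines and TEM4-18. The log2 difference was 0.28 ± 0.21 (adjusted p = 0.544, limma, n = 3 and n = 2), and that of the TEM4-18-derived sublines from TEM4-18 was -0.21 ± 0.23. Of its other probe sets, 214971_s_at read 259.69 to 270.48 in the PC-3-descended sublines, 87.1 to 130.97 in the TEM4-18-derived sublines and 141.11 to 245.9 in TEM4-18, and 214970_s_at was below the filter. In bulk RNA, fewer cells with a transcript and less of it per cell cannot be told apart.

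ST3GAL1, on chromosome 8, sialylates the core of mucin-type O-glycans, a step that competes with the branching on which O-linked selectin ligands are built. On the tested probe set (225033_at) the signals of GS672.Ug, GS689.Li and GS694.LAd were 16640, 15855 and 16086, beside 10942 in GS683.LALN, 9665.2 in JD1203.Lu, and 8715.9 and 7479.7 in TEM4-18. The PC-3-descended sublines lay above all other arrays, as for 11.3% of all tested genes, and the TEM4-18-derived sublines above the duplicates. The log2 difference between the PC-3-descended sublines and TEM4-18 was 1.00 ± 0.13 (a fold of 2.00, adjusted p = 0.00592, limma, n = 3 and n = 2). For the TEM4-18-derived sublines it was 0.35 ± 0.14 (adjusted p = 0.478).

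Both other probe sets of ST3GAL1 were highest in the PC-3-descended sublines, without passing against TEM4-18. Probe set 208322_s_at read 8787.9 to 9421.2 in the PC-3-descended sublines, 5152.8 to 5637.8 in the TEM4-18-derived sublines and 5571 to 7099.6 in TEM4-18, and it differed from TEM4-18 by 0.54 ± 0.15 (adjusted p = 0.102) in the PC-3-descended sublines. Probe set 225034_at read 3334.4 to 4669.1, 2838.2 to 2839.4 and 2430.5 to 2506.7 in the same groups, a difference of 0.74 ± 0.18 (adjusted p = 0.0718). The PC-3-descended sublines lay above the TEM4-18-derived sublines by 0.65 ± 0.13 on the tested probe set (adjusted p = 0.031), which did not pass without GS689.Li, GS694.LAd, JD1203.Lu or either TEM4-18 array (0.56 to 0.67, adjusted p up to 0.115), nor with JD1203.Lu regrouped (0.38, adjusted p = 0.730). The call against TEM4-18 ended without TEM4-18 replicate 1 (log2 difference 1.11, adjusted p = 0.0711) and without replicate 2 (0.89, adjusted p = 0.129), and with JD1203.Lu among the PC-3-descended sublines (0.81, adjusted p = 0.217). Of the 20 nearest tested genes, 14 were higher with a median of 0.28, and 0 were called. NDRG1, a stress-responsive gene next to it, stood at 0.61 ± 0.18 (adjusted p = 0.119).

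ST3GAL4 and ST3GAL6 encode the enzymes that sialylate lactosamine ends and so lead to sialyl-Lewis x. ST3GAL4 had signals of 620.04, 1102.6 and 809.05 in the PC-3-descended sublines, 744.48 and 550.25 in the TEM4-18-derived sublines and 430.19 and 579.79 in TEM4-18. Every PC-3-descended subline was above both duplicates, and GS689.Li was the highest array. The log2 difference between PC-3-descended sublines and TEM4-18, 0.67 ± 0.29, did not pass (adjusted p = 0.281, limma, n = 3 and n = 2). Its low probe set 215710_at differed the other way, by -0.35.

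For ST3GAL6 the signals were 2187.5, 2383.2 and 1565.7 in the PC-3-descended sublines, 2109.9 and 2469.7 in the TEM4-18-derived sublines and 1572.3 and 1530.5 in TEM4-18. GS694.LAd lay between the duplicates and the other sublines lay above both. Neither kind of subline passed, with log2 differences from TEM4-18 of 0.37 ± 0.21 in the PC-3-descended sublines (adjusted p = 0.410) and 0.54 ± 0.23 in the TEM4-18-derived sublines (adjusted p = 0.494). A second well-measured probe set, 213355_at, differed by -0.14 between the PC-3-descended sublines and TEM4-18, against 0.60 for 213873_at, so the probe sets do not give 1 direction. Probe set 213335_s_at was below the filter.

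Of the Lewis-type fucosyltransferases, FUT3 and FUT4 did not pass any test, and FUT7 was not tested. FUT4, the myeloid-type enzyme that fucosylates inner lactosamine units, had signals of 706.2, 602.56 and 616.19 in the PC-3-descended sublines, 904.11 and 721.62 in the TEM4-18-derived sublines and 637.32 and 632.74 in TEM4-18. The highest array was GS683.LALN, and the PC-3-descended sublines lay on both sides of the duplicates. Relative to TEM4-18, the log2 difference was 0.01 ± 0.22 in the PC-3-descended sublines (adjusted p = 0.987) and 0.33 ± 0.24 in the TEM4-18-derived sublines (adjusted p = 0.699). Probe set 209893_s_at of FUT4 ran from 145.88 to 428.23 on the 7 arrays, and the highest of the PC-3-descended sublines and the highest of TEM4-18 were nearly equal, at 428.23 and 426.66.

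FUT3, the Lewis enzyme, had signals of 198.58, 184.25 and 358.06 in the PC-3-descended sublines, 110.04 and 100.47 in the TEM4-18-derived sublines and 204.08 and 175.38 in TEM4-18. Both TEM4-18-derived sublines were below both duplicates, as for 20.5% of all tested genes. The mean signal of this probe set, 190.1, was near the filter of 160.7. The log2 difference from TEM4-18 was 0.27 ± 0.43 in the PC-3-descended sublines (adjusted p = 0.804) and -0.64 ± 0.47 in the TEM4-18-derived sublines (adjusted p = 0.695). FUT3 has near-identical copies in FUT5 and FUT6, so its probes may also read these, and the value is uncertain. Probe set 216010_x_at of FUT3 was below the filter. On it the TEM4-18-derived sublines (86.39 to 164.59) lay within the ranges of TEM4-18 (83.63 to 189.49) and of the PC-3-descended sublines (26.34 to 201.93).

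FUT7, the leukocyte enzyme that completes sialyl-Lewis x, was below the filter on both of its probe sets and was not tested. Probe set 217696_at read 19.08, 37.95 and 195.79 in the PC-3-descended sublines, 14.48 and 81.56 in the TEM4-18-derived sublines and 272.87 and 239.85 in TEM4-18. It was thus highest in TEM4-18. Probe set 210506_at ran the other way, at 27.26, 71.11 and 35.77 in the PC-3-descended sublines, 25.89 and 28.27 in the TEM4-18-derived sublines and 12.67 and 14.25 in TEM4-18. On the second probe set all arrays but the liver line GS689.Li lay under the offset.

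**Figure D4:**
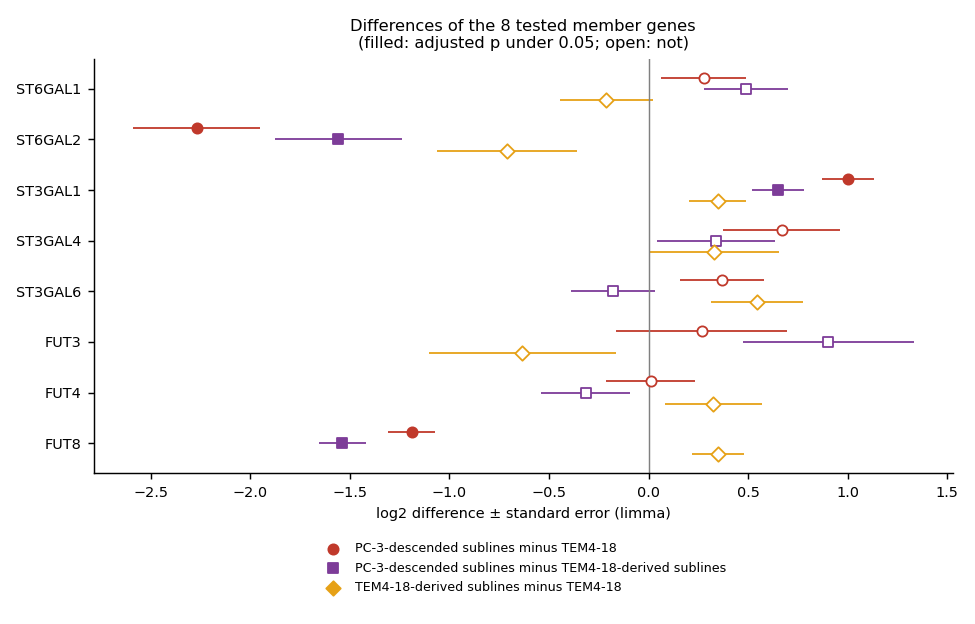
Log2 difference (horizontal axis, bars are SE) of the 8 tested genes in 3 comparisons: PC-3-descended sublines minus TEM4-18 (red circles), PC-3-descended minus TEM4-18-derived sublines (purple squares) and TEM4-18-derived sublines minus TEM4-18 (yellow diamonds). Filled symbols passed the test. ST6GAL2 and FUT8 are filled left of 0 and ST3GAL1 right of 0 in the first 2 comparisons, and 0 symbols are filled in the third.

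Between the TEM4-18-derived sublines and TEM4-18, the injected line, 0 of the 8 tested members were called by limma, where 10 of all tested genes (0.0733%) were. That number was 145 without GS683.LALN and 2 without either TEM4-18 array. On the tested probe sets, both of these sublines lay above the duplicates for 4 members (ST3GAL1, ST3GAL6, FUT4 and FUT8). They lay below them for 2 (ST6GAL2 and FUT3). Of all tested genes, 23.7% lay above and 20.5% below in the same way. At an unadjusted p under 0.05 there were 3 members, FUT8, ST3GAL1 and ST3GAL6, all higher, on the tested probe sets. Of the 13640 tested genes 1326 were so, beside 682 expected by chance. Among their other probe sets above the filter, 208322_s_at of ST3GAL1 (-0.22) and 213873_at of ST3GAL6 (-0.13) went the other way. Those of FUT8 (0.42), 225034_at of ST3GAL1 (0.20) and 213355_at of ST3GAL6 (0.43) were higher. The comparison stated by the study, of all 5 in vivo sublines with TEM4-18, also called 0 members and 0 of all tested genes (0%). Without GS683.LALN it called 14. At an unadjusted p under 0.05 it had 1136 genes, beside 682 expected by chance. ST6GAL2 (log2 difference -1.65 ± 0.56, adjusted p = 0.487, limma, n = 5 and n = 2) and ST3GAL1 (0.74 ± 0.23, adjusted p = 0.456) were the 2 members among these. On the tested probe sets, all 5 in vivo sublines were lower than both duplicates for ST6GAL2 and higher for ST3GAL1. Of all tested genes, 7.01% were lower and 9.57% higher in this way. On probe set 208322_s_at of ST3GAL1, GS683.LALN (5152.8) lay below both duplicates (7099.6 and 5571) and JD1203.Lu (5637.8) between them. FUT8 stood at -0.57 ± 0.48 (adjusted p = 0.769), with the PC-3-descended sublines below and the TEM4-18-derived sublines above the duplicates.

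Grouping by lineage set the 3 PC-3-descended sublines against all 4 arrays of the TEM4-18 lineage, and this comparison shares its arrays with the ones above. Those 4 arrays are TEM4-18 and lines grown from it. The fit kept the 3 groups apart, so the SE leaves out the difference between the TEM4-18-derived sublines and TEM4-18. Here too FUT8, ST6GAL2 and ST3GAL1 were called, with 2 lower and 1 higher, where 5.59% of all tested genes were called (3.59% higher and 1.99% lower). The log2 difference was -1.36 ± 0.10 for FUT8 (adjusted p = 0.000234, limma, n = 3 and n = 4), -1.91 ± 0.27 for ST6GAL2 (adjusted p = 0.00467) and 0.83 ± 0.11 for ST3GAL1 (adjusted p = 0.0037). Of 762 called genes 490 were higher, and median centring turned the split to 393 higher and 424 lower. The count was 248 without GS694.LAd and 1350 without GS672.Ug. Leaving out any 1 of the 7 arrays kept these 3 members called, with an adjusted p of at most 0.00337 for FUT8, 0.0313 for ST6GAL2 and 0.0326 for ST3GAL1. ST3GAL1 (0.67, adjusted p = 0.193) and FUT8 (-0.997, adjusted p = 0.223) were not called with JD1203.Lu among the PC-3-descended sublines.

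Single sublines, each with 1 array and no test, were set beside the TEM4-18 duplicates by size alone. A gene was counted where it lay 2-fold or more from the duplicates' mean and beyond each of them, and 4.2% of tested genes lay 2-fold apart between the duplicates. ST6GAL2 was counted in 4 of 5 sublines, lower by 5.98-fold in GS672.Ug, by 4.37-fold in the liver line GS689.Li, by 4.29-fold in the adrenal line GS694.LAd and by 2.40-fold in JD1203.Lu. FUT8 was counted in the PC-3-descended sublines alone, lower by between 2.17-fold (GS689.Li) and 2.42-fold (GS672.Ug). ST3GAL1 was counted as higher in GS672.Ug (2.06-fold), while the other PC-3-descended sublines fell just short, at folds of 1.96 and 1.99. ST3GAL4 was 2.10-fold higher in GS689.Li. GS683.LALN had 0 members counted. Of all tested genes, 8.37% were counted in GS672.Ug (6.11% higher and 2.27% lower), where 3 of 8 members were. In the liver line GS689.Li, with 3 members, the share was 10.2% (7.73% higher and 2.44% lower). It was 10.6% in GS694.LAd (2.71% lower), with 2 members, both lower. It was 8.75% in JD1203.Lu (4.13% lower), with 1 member, and 5.71% in GS683.LALN, with 0.

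The genes most like each member in pattern were taken by Pearson's r of log2 signals over the 7 arrays, given as a description, since the arrays fall into the same lineages for every gene. FUT8 was followed most closely by PGAP1 (r = 0.996), FBXO34 (r = 0.994) and ATG14, an autophagy gene (r = 0.993). FBXO34 and ATG14 also lie on chromosome 14, and ATG14 differed by -1.52 ± 0.14 between the PC-3-descended sublines and TEM4-18 (adjusted p = 0.00142, limma, n = 3 and n = 2). ST6GAL2 was followed by the actin regulator FHOD3 (r = 0.992), ZBTB6 (r = 0.976) and the lipid kinase gene PIKFYVE (r = 0.975). For ST3GAL1 they were the tubulin gene TUBB2B (r = 0.991), HDX (r = 0.991) and ATXN3 (r = 0.990). The genes most like the others were ZNF407 for ST6GAL1 (r = 0.986), GORAB for ST3GAL4 (r = 0.973), FKBP6 for ST3GAL6 (r = 0.971), USP6NL for FUT3 (r = 0.978) and MRPS33 for FUT4 (r = 0.988).

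The other genes of glycan synthesis and selectin binding were read from 10 lists of 100 genes in all, of which 73 were tested. Against TEM4-18, 2 of them were higher and 0 lower in the PC-3-descended sublines: B3GNT7, an enzyme that extends lactosamine chains, and CD24, a small mucin-like surface protein that P-selectin binds. That is 2.74% higher, near the 2.38% of all tested genes called higher, while 1% of all were called lower. The median log2 difference over the 73 was 0.09, beside 0.05 over all tested genes. In the TEM4-18-derived sublines 0 were called against TEM4-18. Against all arrays of the TEM4-18 lineage, 3 were higher and 1 lower in the PC-3-descended sublines, with CHST2 and B3GNT5 as the further calls. These shares of 4.11% and 1.37% stand beside 3.59% and 1.99% of all tested genes, so neither count is a result about the lists.

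B3GNT7 had signals of 627.46, 772.13 and 732.67 in the PC-3-descended sublines, against 15.8 and 23.3 in GS683.LALN and JD1203.Lu and 22.6 and 35 in TEM4-18. All 4 arrays of the TEM4-18 lineage lay under the offset, and the gene passed the filter through the PC-3-descended sublines alone. It could thus only have differed in that direction, and its call is given as a description. The fitted log2 difference from TEM4-18 of 3.32 is no measured size, since it was 4.65 with no offset and 1.72 with a higher offset, the median of all values. The call ended without TEM4-18 replicate 1 (3.21) or replicate 2 (3.44), with the TEM4-18 arrays averaged, and with JD1203.Lu among the PC-3-descended sublines (2.47).

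CD24, read by a probe set that may cross-hybridise, had signals of 15997, 20215 and 26202 in the PC-3-descended sublines, 270.33 in GS683.LALN, 3644.5 in JD1203.Lu, and 1757.3 and 1589.3 in TEM4-18. GS683.LALN was the lowest array by far. The log2 difference between the PC-3-descended sublines and TEM4-18 was 3.57 ± 0.79 (adjusted p = 0.0461), a call that ended under 10 of 19 alternatives (adjusted p between 0.000315 and 0.331). It ended without GS672.Ug (log2 difference 3.75), GS689.Li (3.58), GS694.LAd (3.39), TEM4-18 replicate 1 (3.64) or replicate 2 (3.50). Against all arrays of the TEM4-18 lineage it was 3.91 ± 0.66 (adjusted p = 0.0114), which ended without GS689.Li (adjusted p = 0.0621) or GS694.LAd (adjusted p = 0.0703).

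CHST2, a sulfotransferase of L-selectin ligands, had 7170.3, 6858.9 and 8340.9 in the PC-3-descended sublines, 2376.5 and 3966.6 in the TEM4-18-derived sublines and 5056.7 and 4398.1 in TEM4-18. It differed by 0.96 ± 0.18 from all arrays of the TEM4-18 lineage (adjusted p = 0.0191), where the call ended without GS689.Li (1.01), GS694.LAd (0.87) or TEM4-18 replicate 2 (1.03), and with JD1203.Lu among the PC-3-descended sublines (0.75, adjusted p = 0.215). B3GNT5, which starts the lacto-series glycolipids, had 13396, 12268 and 12801 in the PC-3-descended sublines, 19008 and 18535 in the TEM4-18-derived sublines and 18306 and 17248 in TEM4-18. It was lower by a log2 difference of -0.51 ± 0.10 than all arrays of the TEM4-18 lineage (adjusted p = 0.0171), and that call ended without GS689.Li (-0.48), GS694.LAd (-0.51), TEM4-18 replicate 1 (-0.51) or replicate 2 (-0.54). It ended as well with the mean of its probe sets (-0.30, adjusted p = 0.298) and with JD1203.Lu regrouped in the same way (-0.37, adjusted p = 0.321). Neither gene passed against TEM4-18 alone, at 0.65 ± 0.22 for CHST2 (adjusted p = 0.163) and -0.47 ± 0.11 for B3GNT5 (adjusted p = 0.0642). CHST2 did pass there without GS683.LALN (adjusted p = 0.0436) or JD1203.Lu (adjusted p = 0.045). B3GNT5 did so without GS672.Ug (-0.50, adjusted p = 0.036), GS683.LALN (adjusted p = 0.046) or JD1203.Lu (adjusted p = 0.0459) and with median centring (-0.57, adjusted p = 0.0409).

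The remaining lists held no call in the comparison of PC-3-descended sublines with TEM4-18. Of 15 other sialyltransferase genes 7 were tested, 5 of them above 0, with a median log2 difference of 0.32. ST6GALNAC2, which sialylates O-glycan cores, stood at 1.05 ± 0.60 (adjusted p = 0.405), ST3GAL5, the ganglioside GM3 synthase, at 0.46 ± 0.33 and ST6GALNAC4 at -0.35 ± 0.26. Of 9 other fucosyltransferase genes 5 were tested, with a median of -0.09, and FUT6, the nearest tested neighbour of FUT3, stood at 0.44 ± 0.42 (adjusted p = 0.631).

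All 11 genes that supply GDP-fucose and CMP-sialic acid were tested, and their median was -0.05. NANP, a phosphatase of sialic acid synthesis, stood at -0.46 ± 0.20 (adjusted p = 0.263), and SLC35C1, the GDP-fucose transporter of the Golgi, at 0.56 ± 0.20 (adjusted p = 0.194). The 8 tested N-glycan branching genes had a median of 0.19, led by MGAT3 at 0.74 ± 0.80. Of the sialidases and fucosidases, NEU4 stood at -1.07 ± 0.61 (adjusted p = 0.406) and the lysosomal sialidase gene NEU1 at 0.55 ± 0.28 (adjusted p = 0.352).

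Among the 13 tested scaffold proteins that carry selectin ligands, CD44 stood at -0.12 ± 0.10 (adjusted p = 0.592), SELPLG, which encodes the P-selectin ligand of leukocytes, at 0.76 ± 0.36 (adjusted p = 0.312) and PODXL at -0.25 ± 0.44 (adjusted p = 0.828). Of the 3 selectin genes, SELP was tested, at -0.01 ± 0.49. The 3 tested galectin genes lay between -0.05 (LGALS3) and 0.24 (LGALS8). Among O-glycan and lactosamine enzymes without a call, B3GNT3 stood at 0.87 ± 0.36 (adjusted p = 0.243) and B3GALT5 at -0.83 ± 0.71 (adjusted p = 0.596).

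**Figure D5:**
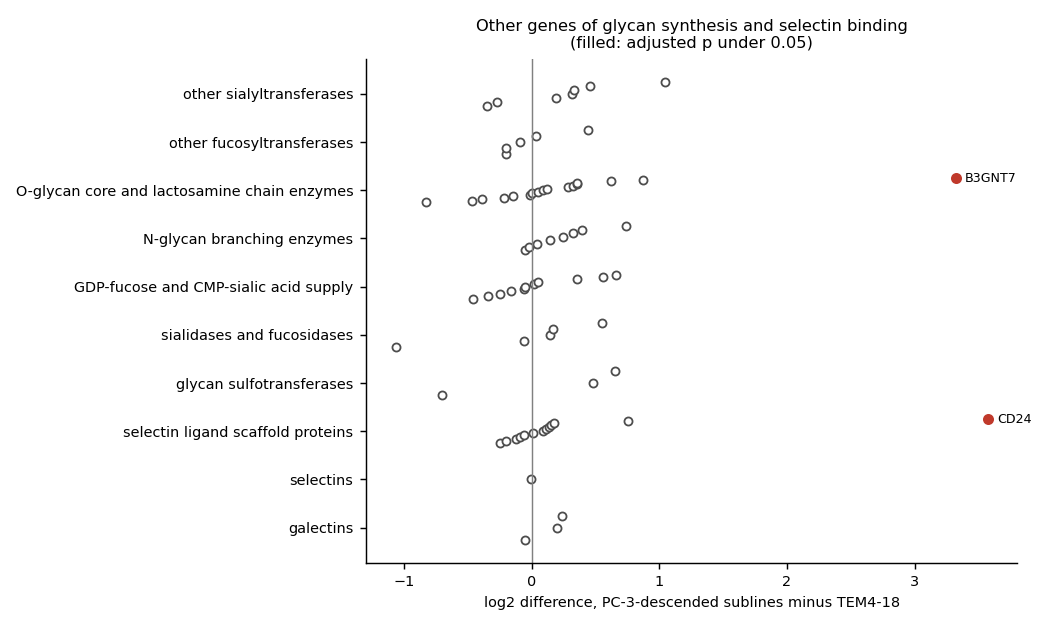
Log2 difference between PC-3-descended sublines and TEM4-18 (horizontal axis) for the 73 tested genes of 10 lists (rows); each circle is 1 gene, and filled circles passed the test. B3GNT7 at 3.32 and CD24 at 3.57 are the filled ones, and all others lie between -1.07 and 1.05.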

How the data were processed

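Total RNA of 7 human cell line cultures was measured on 1-colour Affymetrix arrays. The deposited values are linear intensities, which the authors computed with MAS5 per the submitters' processing notes. No version of it is given in the sources used here. Detection calls were not used. The mean over the middle 96% of values was 1500.2 on every array, and array medians ran from 239.1 to 297.2. Probe sets were named by the annotation table given with the series: 41097 had 1 symbol, 1801 several and 11777 none, and 41043 were matched to RefSeq (GRCh38.p14), used for names, gene order and promoter windows.

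Values plus an offset of 46.94 (20th percentile of all values) were taken to log2. Probe sets with a mean below 160.7 (40th percentile) were left out, and of a gene's probe sets the brightest by mean stood for it. Tests used limma 3.58.1 in R 4.3.3 (lmFit, eBayes with trend, 2-sided, Benjamini-Hochberg). The comparison of all in vivo sublines had a model of 2 groups, and the others shared a model of 3 groups. Tables and figures were made with Python 3.11.15, pandas 2.3.3 and matplotlib 3.10.9. The fit was also run on simulated data. Their noise was independent between arrays, so they cannot show the effect of related lines or technical duplicates. Alternatives covered the offset, filter, scaling, probe set choice, left-out arrays, averaging of related arrays and the group of JD1203.Lu.

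Named genes were all members, up to 4 genes per list (called first, then largest), the 3 genes most like each member in pattern, and neighbours of each member, and a few neighbours were named after their values were seen. The members and lists were chosen with earlier results of these data known. Labels also conflict on the organ of GS683.LALN (lung in the design text) and on the name of GS694.LAd (given as JD549.Ki), and the sample titles were used for names and the descriptions for organs. The luminal list had 3 of 5 genes with a probe set, all above the filter, with sums of 2004.2 to 2720.8, 1466.6 to 2118.5 and 3412.1 to 3721.4 in PC-3-descended sublines, TEM4-18-derived sublines and TEM4-18.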

Additional observations from a re-analysis of the deposited data

Results flagged for a closer look

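For 3 members the difference from TEM4-18 was not the same in the 2 kinds of in vivo subline, by limma's test of PC-3-descended minus TEM4-18-derived sublines (n = 3 and n = 2), which was added after the values were seen. FUT8 differed by -1.54 ± 0.12 on the log2 scale (adjusted p = 0.000499). ST6GAL2 differed by -1.56 ± 0.32 (adjusted p = 0.0346) and ST3GAL1 by 0.65 ± 0.13 (adjusted p = 0.031). Both of these calls ended when GS689.Li, GS694.LAd or either TEM4-18 array was left out, that of ST6GAL2 also without GS683.LALN (-1.01) and that of ST3GAL1 also without JD1203.Lu (0.56). Over the 7 fits that leave out 1 array the values lay between -2.11 and -1.01 for ST6GAL2 and between 0.56 and 0.74 for ST3GAL1. The call of FUT8 held in all 7. With JD1203.Lu among the PC-3-descended sublines all of these calls ended, at -1.32 for FUT8 (adjusted p = 0.386), -1.86 for ST6GAL2 (adjusted p = 0.158) and 0.38 for ST3GAL1 (adjusted p = 0.730). That of ST3GAL1 also ended with median centring (0.56, adjusted p = 0.0581), and that of ST6GAL2 with the mean of the probe sets (-1.08, adjusted p = 0.172) and with no filter (adjusted p = 0.057). Both ended too with GS689.Li and GS694.LAd averaged, or with the TEM4-18 arrays averaged. In limma's fit over single probe sets, the second probe set of ST6GAL2 did not pass (-0.61 ± 0.49, adjusted p = 0.541). On it JD1203.Lu (206.73) lay below all PC-3-descended sublines (217.52 to 361.43). For ST3GAL1, 225034_at did not pass (0.54 ± 0.18, adjusted p = 0.158), while 208322_s_at did (0.76 ± 0.15, adjusted p = 0.0305). The second probe set of FUT8 passed as well (-1.61 ± 0.14, adjusted p = 0.000701).

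Dixon's test of the gap to the nearest array over the group's range was run on log2 values of 28 probe sets, in the 4 arrays of the TEM4-18 lineage and in the 5 in vivo sublines. It marked 2 of 56 cases, where chance marks about 1 in 20. On the second probe set of ST6GAL2, JD1203.Lu, at 206.73, stood apart from the other arrays of the TEM4-18 lineage, at 911.87 to 979.26, with a ratio of 0.951 against a critical value of 0.829. On the tested probe set of ST6GAL2 its ratio was 0.794. On the second probe set of FUT7, GS689.Li, at 71.11, stood apart from the other in vivo sublines, at 25.89 to 35.77, with a ratio of 0.737 against 0.71, at signals around the offset.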

How the results depend on the processing

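Under 19 alternatives, 7 of which leave out 1 array, 661 values of a member were compared. Of these, 615 kept direction and side of the threshold, 33 lost a call and 13 turned in direction. Most of the 661 belong to genes not called in the comparison, which had no call to lose. Against TEM4-18, FUT8, ST3GAL1 and ST6GAL2 lost theirs under 3, 4 and 4 of the 19 alternatives. Against the TEM4-18 lineage they did so under 1, 1 and 0, and against the TEM4-18-derived sublines under 1, 9 and 10. No paired analysis was possible because only the TEM4-18 arrays carry replicate numbers. Leaving out 1 array gave 31 to 940 called genes for PC-3-descended sublines against TEM4-18 (461 in all arrays), 2 to 145 for TEM4-18-derived sublines (10), 0 to 14 for all in vivo sublines (0), 248 to 1350 for PC-3-descended sublines against the TEM4-18 lineage (762) and 152 to 1143 against TEM4-18-derived sublines (513). Called members ran from 0 to 3 against TEM4-18, from 3 to 3 against the TEM4-18 lineage and from 1 to 3 against TEM4-18-derived sublines, an order kept below. Testing each probe set alone gave 826, 1385 and 910 calls. Averaging GS689.Li and GS694.LAd left 160, 269 and 171, with 1 member called in the last. Averaging the TEM4-18 duplicates left 35, 286 and 207 (0 members in the first, 1 in the last), and 2 for the TEM4-18-derived sublines. With JD1203.Lu among the PC-3-descended sublines there were 14, 71 and 43 calls with 0, 1 and 0 members, and 5 for the TEM4-18-derived sublines. For all in vivo sublines no offset gave 4 and median centring 3. Against TEM4-18-derived sublines, 295 higher and 218 lower became 228 and 306 with median centring. The causes of these changes in count were not tested.

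With the mean of the probe sets FUT4 turned to -0.15 (PC-3-descended), -0.049 (TEM4-18-derived) and -0.11 (all in vivo) against TEM4-18, and ST3GAL4 to -0.21 (TEM4-18-derived). FUT4 in PC-3-descended sublines against TEM4-18 also turned with median centring (-0.087), quantile normalization (-0.097) and without GS672.Ug (-0.055, range without 1 array -0.055 to 0.051). ST3GAL6 against the TEM4-18 lineage turned with median centring (-0.0001687), without GS689.Li (-0.024) and without TEM4-18 replicate 2 (-0.001811; range -0.024 to 0.27). In all in vivo sublines FUT3 turned without GS683.LALN (0.03) or JD1203.Lu (0.053; range -0.31 to 0.053), and ST6GAL1 without TEM4-18 replicate 2 (-0.095; range -0.095 to 0.26). None of these was called. Signals near or below the filter limit FUT3 and FUT7.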

Other observations

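FUT8-AS1, the antisense gene beside FUT8, was measured apart from it. Its signals were 3604.9, 5432.2 and 4835.1 in the PC-3-descended sublines, 5844.3 and 7125.6 in the TEM4-18-derived sublines and 3479.3 and 3491.2 in TEM4-18. All 5 in vivo sublines were above both duplicates, GS672.Ug by little, as for 9.57% of all tested genes. FUT8 itself was below both duplicates in the PC-3-descended sublines. The log2 difference from TEM4-18 was 0.38 ± 0.20 in the PC-3-descended sublines (adjusted p = 0.350, limma, n = 3 and n = 2) and 0.88 ± 0.21 in the TEM4-18-derived sublines (adjusted p = 0.249), and neither passed.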
